A study of Mus musculus with 23 samples.

Results

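Batf3, Irf8, Irf4, Id2, Zbtb46, Nfil3, Klf4, Spi1, Bcl6 and Ikzf1 encode 10 transcription factors of classical dendritic cell (DC) lineages, and were followed through 23 RNA sequencing libraries of sorted spleen DCs. They were looked up by gene symbol among the 47729 genes of the deposited matrix, and all 10 were found and passed the filter on low counts. The list was chosen with earlier results of these data known. The cells came from wild type Balb/C mice, with several mice pooled for each set of libraries. The 4 sorted populations were named by surface CD8 and CD172, namely DC1a (CD8hi CD172-), DC1b (CD8Int CD172+), DC2 (CD8lo CD172hi) and DC3 (CD8- CD172lo). Untreated mice gave 2 pools, with 8 libraries that were all of batch 1. Mice labelled TLI gave 4 pools and 15 libraries, since a DC2 library of TLI pool 2 was not analysed here. TLI pools 1 and 2 were of batch 1 and pools 3 and 4 of batch 2. TLI is usually short for total lymphoid irradiation, but the labels use only the short form and give no dose, time or age. The same pool number in untreated and TLI mice does not mean the same mice.

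Classical DCs present antigen to T cells and fall into cDC1 and cDC2 lineages. The cDC1 lineage depends on Irf8, Batf3, Id2 and Nfil3, and in textbook accounts Batf3 keeps Irf8 switched on while Id2 restrains the E proteins that direct plasmacytoid DC fate. Irf4 and Klf4 are needed for parts of the cDC2 lineage. Zbtb46 marks classical DCs among myeloid cells, Bcl6 is a repressor, Spi1 encodes the ETS factor PU.1, and Ikzf1 encodes the zinc finger protein Ikaros.

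On assembly GRCm38 the lineage genes lie at chr1:191097847-191108945 (Batf3, plus strand), chr8:120736358-120756694 (Irf8, plus), chr13:30749226-30766976 (Irf4, plus), chr12:25093799-25097140 (Id2, minus), chr4:55527143-55532466 (Klf4, minus) and chr16:23965052-23988852 (Bcl6, minus). Exons of Bcl6 share 21 bases with the predicted gene Gm37419 of opposite strand, and no source used here says that strand was used in counting. The other 9 members share no exon bases with another annotated gene. RefSeq windows from 250 bases before to 50 bases after a gene start (GRCm38.p6) were searched on both strands for the letters that several of these factors are known to bind. The table held 12 such windows for 9 of the members and none for Spi1. The 4 stretches below, each 30 bases long and printed on the strand of its gene, are shown because they hold a match and belong to members that passed a comparison below; Id2 and Klf4, which passed as well, hold no match. Capitals mark the match.
Irf8, chr8:120736177-120736206, plus strand: caaaagtgatTTCTCGGAAagagagcgctt
Batf3, chr1:191098249-191098278, plus strand: gggtggggggagGAGGAAgcaggggcgggg
Irf4, chr13:30749202-30749231, plus strand: ggctctataaagTTCCTCtttctcacctca
Bcl6, chr16:23981352-23981381, minus strand: atcgactacgTTCCGGGAAtgagagggctg
The matches in Irf8 and Bcl6 are to TTCNNGGAA, letters bound by BCL6, and lie 171 to 163 and 88 to 80 bases before the start. The Bcl6 start used here is inside the gene, downstream of its first start. The Batf3 window, which begins at chr1:191098164, also lies inside the gene as placed above. Those letters occurred in 3 of the 12 member windows, of which the third is that of Batf3 (other strand), and in 4.81% of all 32851 windows. The matches in Batf3 and Irf4 are to GAGGAA, letters of PU.1 sites, which occurred in 3 of the 12 and in 28.3% of all windows. The Irf4 match is on the other strand, so its capitals read TTCCTC. The AP-1 letters TGANTCA were in 1 of the 12 against 7.81%, and the combined ETS and IRF letters GGAANNGAAA in 1 of the 12, also at the internal Bcl6 start, against 2.72%. Neither GAAANNGAAA (IRF, 3.44% of all windows) nor TTANNTAA (NFIL3, 6% of all windows) occurred in a member window. These are matches of letters only, some windows share a gene, and binding was not measured.

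Total counts per library ranged from 19256447 to 36997890. Levels are given below as CPM, counts scaled to the library total, at which 3 counts correspond to between 0.0811 and 0.156 CPM. Some libraries stood apart or went against their labels. Untreated DC1b libraries held 4713 and 7613 summed CPM of 6 plasmacytoid DC markers, and no other library held more than 209. Siglech, which encodes a surface lectin of plasmacytoid DCs, stood at 1160 and 1858 CPM there, between 0.268 and 31.2 CPM in TLI DC1b libraries, and at 0 in all 4 TLI DC1a libraries. DC3 libraries held 2325 to 3835 summed CPM of 11 cDC1 markers, against 313 to 537 in all DC2 libraries, and these cells, CD8- in the sort, are called DC3 here only by their gate. TLI DC1b libraries held 1023 to 17517 summed CPM of 5 neutrophil markers, against at most 17.5 in untreated DC1b libraries. Erythroid genes took 4.77% to 13.3% of the counts in TLI pool 1, 1.92% to 2.38% in pool 2, at most 0.714% in pools 3 and 4 and at most 0.227% in untreated libraries. The 4 NK cell markers summed to 57.6 to 2515 CPM in the 7 TLI libraries of batch 1 and to at most 34.7 CPM in the 8 of batch 2, where Ncr1, an NK cell receptor, was at 0 in 7 libraries. The highest of these sums was in a DC3 library. Untreated DC3 libraries held 252 and 99.6 CPM of the NK cell markers, and no other untreated library held more than 7.30 CPM. Among TLI libraries the 4 T cell markers summed to 56.3 to 241 CPM in batch 1 and 2.50 to 36.8 CPM in batch 2. Untreated libraries held at most 23.6 CPM of them. Transcripts of the sorting markers went against the gate in some libraries. Cd8a, which encodes a chain of CD8, was at 0.327 CPM in the library labelled TLI DC1b of pool 4, against 302, 342 and 79.0 CPM in those of pools 1 to 3 and 0.276 to 1.06 CPM in TLI DC2 libraries. Sirpa, which encodes CD172, was at 9.22 CPM in the library labelled TLI DC2 of pool 3, against 36.7 and 309 CPM in the other TLI DC2 libraries and 146 and 141 CPM in TLI DC1b libraries of pools 1 and 2, and at 5.10 and 6.55 CPM in TLI DC1b libraries of pools 3 and 4. Without the library labelled TLI DC1b of pool 4, 9 of 60 member comparisons between TLI populations passed, as with it. Without the library labelled TLI DC2 of pool 3, 8 of 60 passed, and the calls of DC2 against DC1a cells ended for Batf3 (-0.96, edgeR adjusted p = 0.171) and Id2 (-1.51, edgeR adjusted p = 0.0982). The part of these other cell types in the members' values was not tested, except that calls were recounted without TLI pool 1 and with erythroid genes removed. In sorted pools a smaller number of cells of a type and less RNA per cell cannot be told apart.

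Irf8 was lower in DC2 cells than in each of the other untreated populations, and its level in DC1a, DC1b and DC3 cells was of the same order. Irf8 is the interferon regulatory factor that sets cDC1 identity, and it is also strongly expressed in plasmacytoid DCs. In untreated mice Irf8 stood at 574 and 473 CPM in DC1a cells, 1079 and 875 CPM in DC1b cells, 930 and 895 CPM in DC3 cells, and 1.63 and 35.4 CPM in DC2 cells. The 2 DC2 libraries lay below every other untreated library but differed widely from each other. Irf8 was lower in DC2 than in DC1a cells by edgeR's quasi-likelihood test, with a log2 fold change of -5.06 ± 0.95 (SE, n = 2 and 2, adjusted p = 0.00864 over 19597 genes). It was lower in DC2 than in DC1b cells (-5.67 ± 0.98, edgeR adjusted p = 0.0110) and higher in DC3 than in DC2 cells (5.60 ± 0.97, edgeR adjusted p = 0.00835). DC1a, DC1b and DC3 cells were not called different from one another in Irf8. All 3 calls were lost in a fit of the 8 untreated libraries alone (edgeR adjusted p = 0.0997, 0.141 and 0.105), and that of DC2 against DC1b cells in batch 1 alone as well (edgeR adjusted p = 0.0560). Without DC2 replicate 1 or 2 they passed, but the log2 fold change of DC2 against DC1a cells became -4.13 or -8.51, and that of DC3 against DC2 cells 4.66 or 9.04.

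After TLI, Irf8 stood at 644, 961, 622 and 661 CPM in DC1a cells (pools 1 to 4), and at 515, 1123, 1004 and 787 CPM in DC3 cells. DC1b libraries had 224, 369, 191 and 59.4 CPM, and DC2 libraries of pools 1, 3 and 4 had 74.8, 35.3 and 34.8 CPM. DC1a and DC3 libraries all lay above all DC1b and DC2 libraries, and only the library labelled DC1b of pool 4, with Cd8a at 0.327 CPM, fell within the DC2 range. Irf8 was again lower in DC2 than in DC1a cells (-4.19 ± 0.73, edgeR adjusted p = 0.00282) and higher in DC3 than in DC2 cells (4.23 ± 0.73, edgeR adjusted p = 0.00434). The difference of -1.97 ± 0.59 between TLI DC1b and DC1a cells did not pass (edgeR adjusted p = 0.131). In the order of the 8 group means Irf8 ran from 977 CPM in untreated DC1b to 18.5 CPM in untreated DC2 cells, and neighbours in that order overlapped except TLI DC1a above untreated DC1a and untreated DC1a above TLI DC1b.

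Batf3, a basic leucine zipper factor needed for cDC1 development, was lowest in untreated DC1b cells. Its levels in untreated mice were 304 and 243 CPM in DC1a, 50.9 and 41.8 CPM in DC1b, 168 and 139 CPM in DC2, and 287 and 288 CPM in DC3 cells. No DC1b or DC2 library reached a DC1a or DC3 library. Batf3 was lower in DC1b than in DC1a cells (-2.86 ± 0.45, n = 2 and 2, edgeR adjusted p = 0.00380) and higher in DC3 than in DC1b cells (2.66 ± 0.45, edgeR adjusted p = 0.0140). DC2 and DC1a cells differed by -1.04 ± 0.42, which did not pass (edgeR adjusted p = 0.298). The untreated DC1b libraries in which Batf3 was low are those with the plasmacytoid DC markers, whose part in this was not tested. Batf3 was also at 45.6 to 56.6 CPM in the TLI DC1b libraries of batch 2. No TLI DC1b library held more than 113 summed CPM of those markers.

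In TLI mice Batf3 had a narrow range in DC1a cells, at 180, 172, 162 and 180 CPM, and stood at 196, 146, 208 and 220 CPM in DC3 cells. DC1b libraries had 87.9, 141, 56.6 and 45.6 CPM, and DC2 libraries had 113, 45.9 and 111 CPM. DC1a lay above DC1b and DC2 in every library, while DC1b and DC2 overlapped. Batf3 was lower in DC2 than in DC1a cells (-1.24 ± 0.33, edgeR adjusted p = 0.0486), a call just inside the threshold that only 6 of 32 alternative settings kept and that the pool as a replicate block ended (edgeR adjusted p = 0.0786). The lower level in DC1b than in DC1a cells (-1.23 ± 0.30) lay just outside it (edgeR adjusted p = 0.0542).

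Id2, an inhibitor of E proteins, had the highest level per length of the 10 members in all 8 groups, from 221 CPM per kb of exon in untreated DC2 to 1141 CPM per kb in untreated DC1a cells. Untreated libraries had 2986 and 2579 CPM in DC1a, 777 and 728 CPM in DC1b, 604 and 472 CPM in DC2, and 2549 and 2308 CPM in DC3 cells. The groups split cleanly, with DC1a and DC3 above DC1b and DC2. Only the lower level in DC2 than in DC1a cells passed (-2.58 ± 0.56, n = 2 and 2, edgeR adjusted p = 0.0242), and DC1b against DC1a cells gave -2.18 ± 0.56 (edgeR adjusted p = 0.0856). Some alternative settings called more. DESeq2 called Id2 for DC1b against DC1a (adjusted p = 0.00888) and DC3 against DC2 cells (adjusted p = 0.00637). A fit of the 8 untreated libraries alone called both as well (edgeR adjusted p = 0.0110 and 0.0103). TLI libraries had 1748, 1689, 2450 and 2276 CPM in DC1a, 1799, 1015, 1358 and 828 CPM in DC1b, 1360, 306 and 417 CPM in DC2, and 1787, 1344, 3006 and 2502 CPM in DC3 cells. Here DC1b overlapped DC1a cells and the DC2 library of pool 1 stood far above the other two. Id2 was lower in TLI DC2 than in TLI DC1a cells (-1.91 ± 0.44, edgeR adjusted p = 0.0211), but in batch 1 alone the difference was -0.53 (edgeR adjusted p = 0.691), with a single DC2 library.

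**Figure D1:**
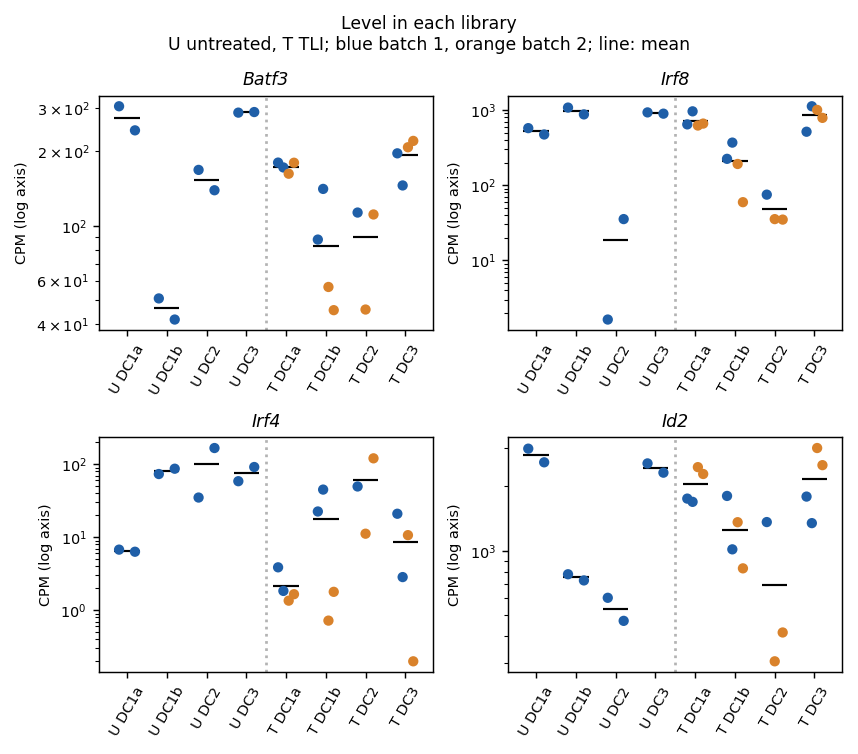
CPM (log axes) of Batf3, Irf8, Irf4 and Id2 in each library, by group, where U is untreated and T is TLI. Points are libraries, blue for batch 1 and orange for batch 2, and bars are group means. Irf8 is at 1.63 and 35.4 CPM in untreated DC2 cells and at 473 CPM or above in the other untreated groups.

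Irf4, an interferon regulatory factor of the cDC2 lineage, had its lowest mean in DC1a cells, and its replicates differed widely in several groups. Untreated libraries had 6.76 and 6.33 CPM in DC1a, 73.5 and 86.9 CPM in DC1b, 35 and 167 CPM in DC2, and 58.6 and 91.7 CPM in DC3 cells. The DC1a libraries lay below all others, and the 3 other populations overlapped. No untreated difference in Irf4 passed, and DC2 against DC1a cells gave 3.72 ± 1.61 (n = 2 and 2, edgeR adjusted p = 0.333). TLI libraries had 3.87, 1.84, 1.35 and 1.66 CPM in DC1a, 22.5, 45, 0.720 and 1.79 CPM in DC1b, 49.6, 11.2 and 121 CPM in DC2, and 21, 2.84, 10.7 and 0.199 CPM in DC3 cells. All 3 DC2 libraries lay above all 4 DC1a libraries, whereas DC1b and DC3 libraries spread from below the DC1a range to 45 and 21 CPM. Irf4 was higher in TLI DC2 than in TLI DC1a cells (5.02 ± 1.26, edgeR adjusted p = 0.0350), a call that 18 of 32 alternative settings kept and that the pool as a replicate block ended (edgeR adjusted p = 0.101). The lowest TLI value, in DC3 cells of pool 4, rests on 7 counts.

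The balance of Irf8 to Irf4 was then taken within each library as the log2 ratio of their counts, with 0.5 added to each, so that library scaling cancels. It averaged 7.75 ± 1.25 (SD, n = 6) in DC1a, 6.48 ± 3.26 (n = 6) in DC3, 4.44 ± 1.90 (n = 6) in DC1b and -1.24 ± 2.40 (n = 5) in DC2 cells. In untreated libraries it was 6.40 and 6.22 in DC1a, 3.87 and 3.33 in DC1b, 3.99 and 3.29 in DC3, and -4.41 and -2.24 in DC2 cells. TLI libraries ran from 7.37 to 9.02 in DC1a, from 3.03 to 8.03 in DC1b, from 4.61 to 11.8 in DC3 and from -1.79 to 1.66 in DC2 cells. Every DC2 library was below every library of the other populations, while DC3 overlapped both DC1a and DC1b cells. DC1b overlapped DC1a cells through the TLI library of pool 3, at 8.03, which rests on 26 counts of Irf4. TLI DC1b libraries stood at 3.31 and 3.03 in batch 1 and at 8.03 and 5.04 in batch 2. The difference in mean log2 ratio was -3.31 for DC1b minus DC1a cells and -8.98 for DC2 minus DC1a cells. It was -5.68 for DC2 minus DC1b cells and 7.72 for DC3 minus DC2 cells.
These 4 of 6 pairs passed a two-sided exact permutation test within strata of treatment and batch (each p = 0.00926, the smallest the design allows, adjusted p = 0.0139 over 6 pairs). DC3 against DC1a cells (-1.26, exact permutation adjusted p = 0.306) and DC3 against DC1b cells (2.05, exact permutation adjusted p = 0.167) did not pass. With the pool as a replicate block, 0 of the 6 pairs passed, and that design cannot go below an exact p of 0.0312, or 0.0625 for pairs with DC2 cells.

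**Figure D2:**
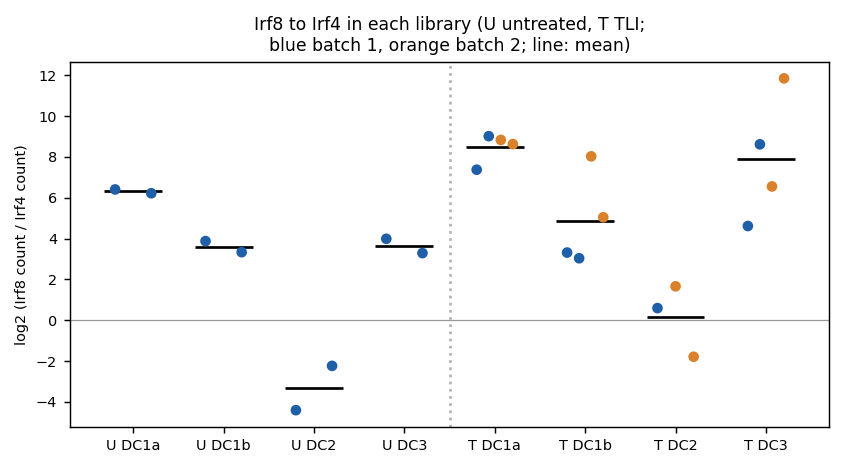
The log2 ratio of Irf8 to Irf4 counts in each library, by group, where U is untreated and T is TLI. Points are libraries, blue for batch 1 and orange for batch 2, and bars are group means. DC2 libraries run from -4.41 to 1.66 and all other libraries lie at 3.03 or above.

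Klf4, a zinc finger factor of cDC2 and monocyte lineages, had its lowest mean in DC1a cells. Untreated libraries had 28.3 and 31.2 CPM in DC1a, 118 and 117 CPM in DC1b, 212 and 211 CPM in DC2, and 82.6 and 112 CPM in DC3 cells. Replicates lay close together and the 4 populations did not overlap. Klf4 was higher in DC2 than in DC1a cells (2.62 ± 0.42, n = 2 and 2, edgeR adjusted p = 0.00280), whereas DC1b against DC1a cells gave 1.69 ± 0.41 (edgeR adjusted p = 0.0677). TLI libraries had 14.2, 15.6, 23.8 and 33.2 CPM in DC1a, 100 and 84.5 CPM in pools 1 and 2 and 436 and 420 CPM in pools 3 and 4 of DC1b, 173, 387 and 332 CPM in DC2, and 65.1, 31.7, 221 and 173 CPM in DC3 cells. Batch 2 lay above batch 1 in all 4 populations, and within each batch DC1b and DC2 libraries lay above DC1a and DC3 libraries. Klf4 was higher than in TLI DC1a cells in TLI DC1b (3.19 ± 0.31, edgeR adjusted p = 9.62e-06), DC2 (3.19 ± 0.32, edgeR adjusted p = 1.12e-05) and DC3 cells (2.00 ± 0.29, edgeR adjusted p = 0.00167). The first 2 of these calls were kept in all 32 alternative settings. Neutrophil and macrophage markers were also high in TLI DC1b and DC2 libraries, with macrophage sums of 628 to 1768 and 530 to 1764 CPM against 32.6 to 363 CPM in TLI DC1a libraries. Untreated DC1b libraries, with Klf4 at 118 and 117 CPM, had macrophage sums of 1610 and 2520 CPM. Over all TLI libraries these sums ran from 181 to 1768 CPM in batch 1 and from 32.6 to 890 CPM in batch 2. The part of such cells in the Klf4 levels was not tested.

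Bcl6, a zinc finger repressor, had 36.6 and 34.8 CPM in untreated DC1a, 22.2 and 15 CPM in DC1b, 68 and 59.3 CPM in DC2, and 62.9 and 83.1 CPM in DC3 cells. DC2 and DC3 libraries overlapped each other and lay above both DC1a and DC1b libraries. Bcl6 was higher than in DC1b cells in DC2 (1.87 ± 0.37, n = 2 and 2, edgeR adjusted p = 0.0323) and in DC3 cells (2.01 ± 0.37, edgeR adjusted p = 0.0210). Both calls were lost in a fit of the 8 untreated libraries alone (edgeR adjusted p = 0.107 and 0.122). After TLI the levels differed by batch. Libraries of pools 1 and 2 had 9 and 8.42 CPM in DC1a, 26.1 and 27.6 CPM in DC1b and 25.2 and 16.6 CPM in DC3 cells, with 23.7 CPM in DC2 cells of pool 1. Those of pools 3 and 4 had 42.6 and 43.3 CPM in DC1a, 188 and 127 CPM in DC1b, 81.9 and 67.6 CPM in DC2, and 99.7 and 86.8 CPM in DC3 cells. Batch 2 lay above batch 1 in all 4 populations, by a ratio of means between 3.15 and 5.87. Bcl6 was higher in TLI DC1b than in TLI DC1a cells (1.67 ± 0.26, edgeR adjusted p = 0.00167).

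The remaining 4 members gave no call between populations in the reported fit. DESeq2 called Spi1 for untreated DC2 against DC1b cells (adjusted p = 0.0105) and Nfil3 for TLI DC3 against DC1b cells (adjusted p = 0.00594). It also called Zbtb46 in TLI mice for DC2 against DC1a and DC3 against DC2 cells (adjusted p = 0.0139 and 0.00761). Spi1, whose product PU.1 is needed across myeloid lineages, had 240 and 208 CPM in untreated DC1a, 197 and 103 CPM in DC1b, 482 and 575 CPM in DC2, and 193 and 223 CPM in DC3 cells. Untreated DC2 libraries lay above all others, but DC2 against DC1b cells gave 1.91 ± 0.52 (n = 2 and 2, edgeR adjusted p = 0.171). In TLI libraries Spi1 had 410, 507, 119 and 120 CPM in DC1a cells and 146, 556, 101 and 72.6 CPM in DC3 cells. It was higher in batch 1 than in batch 2 in all 4 populations.
Nfil3, a repressor that acts upstream of cDC1 and innate lymphoid fates, also stood higher in batch 1 of all 4 TLI populations. The TLI libraries of batch 1 are those with the higher sums of NK and T cell markers, whose part in this was not tested. In TLI mice Nfil3 levels were 60, 123, 15.5 and 2.01 CPM in DC1a cells and 49.7, 75.7, 6.15 and 4.24 CPM in DC3 cells. Untreated libraries, also of batch 1, ranged from 32.5 to 166 CPM of Nfil3. They held at most 23.6 CPM of T cell markers and, outside DC3 cells, at most 7.30 CPM of NK cell markers. Zbtb46, the classical DC marker, had its lowest mean in untreated DC1b cells, at 11.7 and 5.72 CPM, and its 2 untreated DC2 libraries differed most, at 6.84 and 90 CPM. TLI DC3 libraries had 69.9, 139, 115 and 63.5 CPM of Zbtb46 and TLI DC2 libraries 11.1, 8.56 and 35.1 CPM, which do not overlap, although the difference of 2.41 ± 0.75 did not pass (edgeR adjusted p = 0.156).
Ikzf1 ranged from 39.2 to 279 CPM in untreated and from 3.26 to 300 CPM in TLI libraries. Among TLI DC3 libraries alone it stood at 151, 18.5, 3.73 and 190 CPM, a wider span than that of the 8 group means, which ran from 41.7 to 208 CPM.

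**Figure D3:**
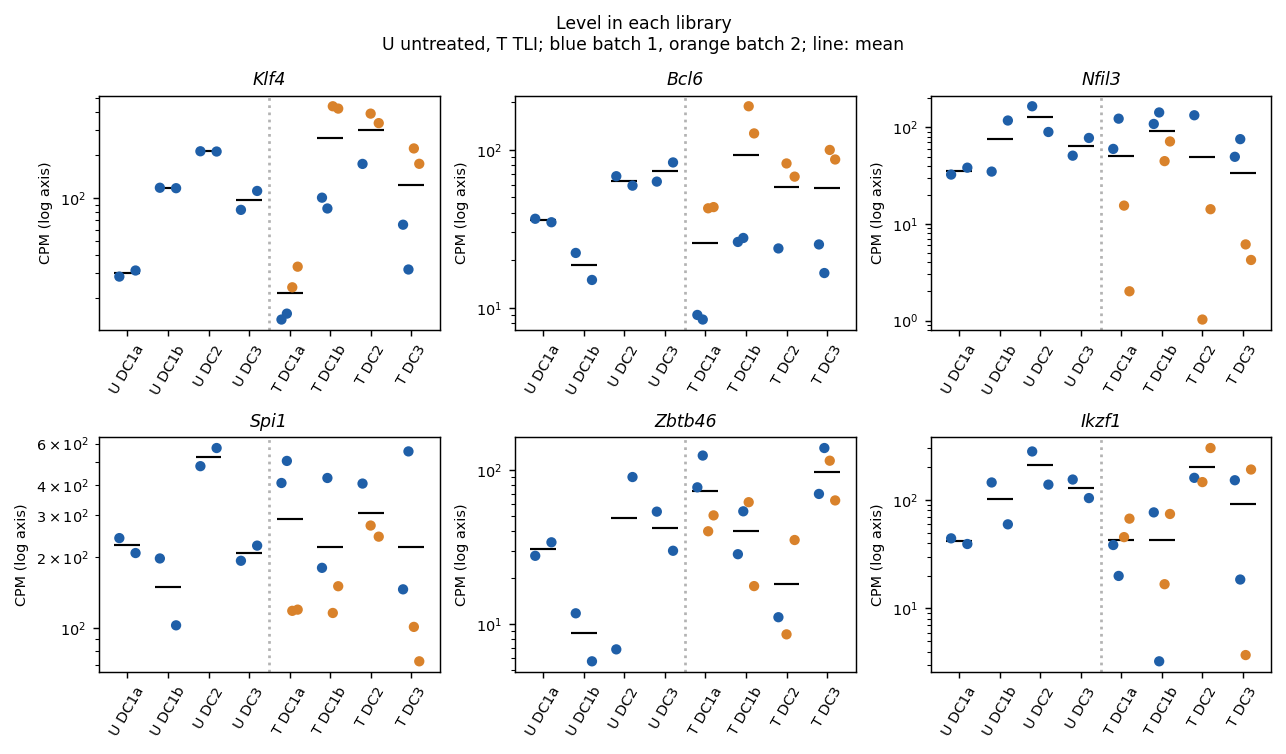
CPM (log axes) of Klf4, Bcl6, Nfil3, Spi1, Zbtb46 and Ikzf1 in each library, by group, where U is untreated and T is TLI. Points are libraries, blue for batch 1 and orange for batch 2, and bars are group means. In TLI groups Klf4 and Bcl6 are higher in batch 2 and Nfil3 and Spi1 higher in batch 1 in all 4 populations.

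Over the 6 pairs of untreated populations 9 of 60 member comparisons passed, with 26 of 60 at an unadjusted p under 0.05. Of the 10 members, 1 passed for DC1b against DC1a cells, where 0.837% of all genes tested passed, 3 for DC2 against DC1a (1.91%), 2 for DC2 against DC1b (0.398%), 0 for DC3 against DC1a (0.184%), 2 for DC3 against DC1b (0.393%) and 1 for DC3 against DC2 cells (0.837%). For DC3 against DC1a cells 2 members had an unadjusted p under 0.05 in edgeR's test, and DESeq2 called 1, Klf4. The median log2 fold change of the members was 0.83 for DC2 against DC1a cells, against 0.11 over all genes. In TLI mice 9 of 60 passed as well, with 32 at an unadjusted p under 0.05. The counts were 2 for DC1b against DC1a (1.42% of all genes), 5 for DC2 against DC1a (3.4%), 0 for DC2 against DC1b (0.214%), 1 for DC3 against DC1a (0.75%), 0 for DC3 against DC1b (1.11%) and 1 for DC3 against DC2 cells (1.37%). In the pairs with 0 calls, 5 members each had an unadjusted p under 0.05, and DESeq2 called 2 for DC2 against DC1b and 5 for DC3 against DC1b cells. The 4 calls shared by untreated and TLI mice were lower Irf8, lower Id2 and higher Klf4 in DC2 than in DC1a cells, and higher Irf8 in DC3 than in DC2 cells. Whether a call in one treatment only differs between treatments is the question of the interaction test below.

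**Figure D4:**
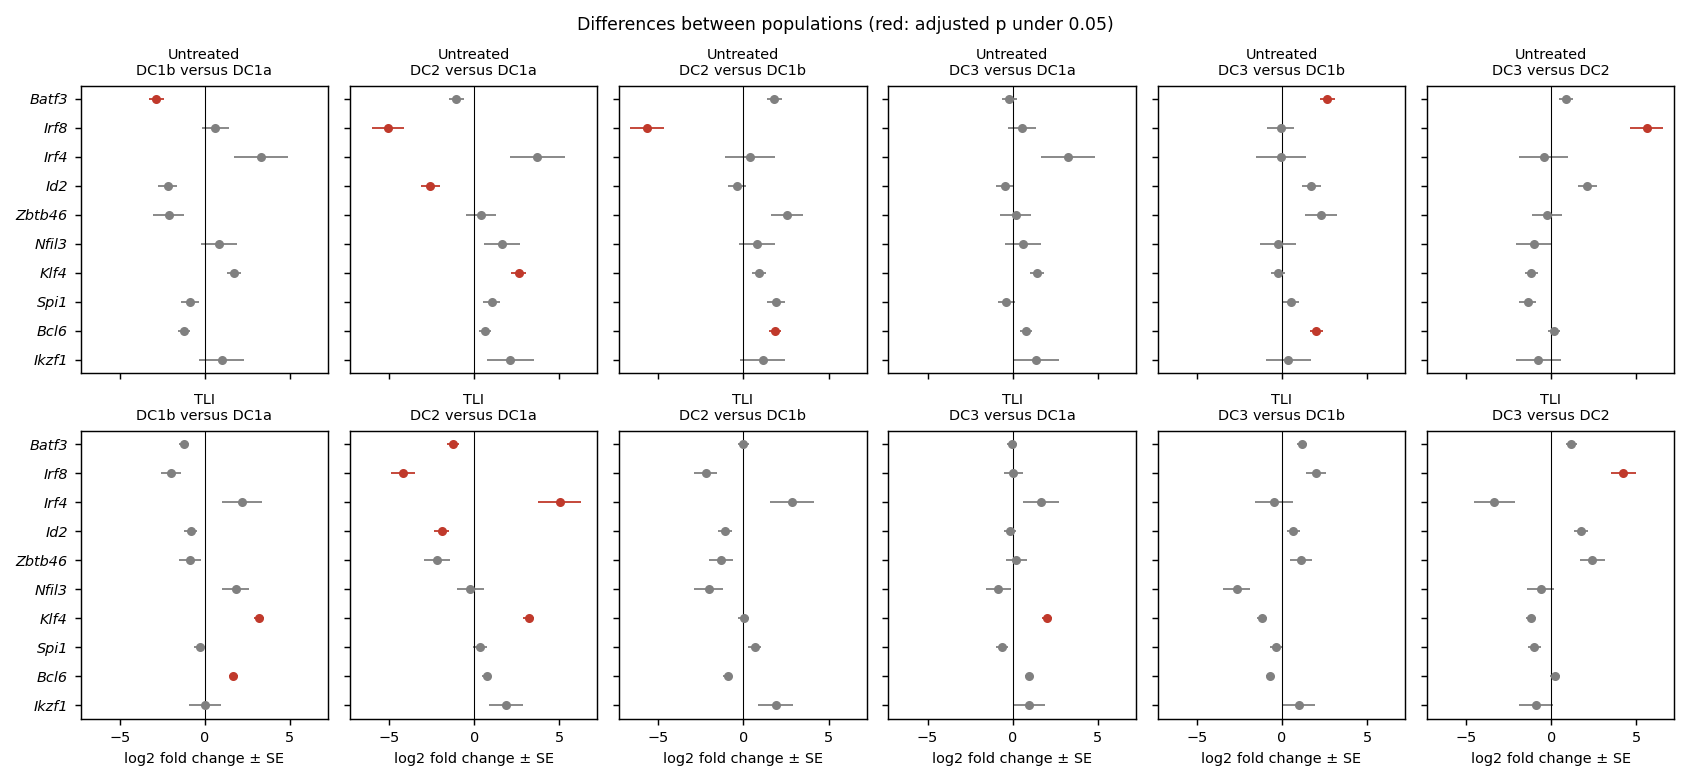
Fitted log2 fold changes (x axes, first population minus second, with SE bars) of the 10 members for the 6 pairs of populations, in untreated mice above and in TLI mice below. Red points passed an adjusted p of 0.05, 9 in each row, and the Irf8 points of DC2 against DC1a and of DC3 against DC2 are red in both rows.

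The effect of TLI on each factor was compared in each population. No member passed in any of the 4 populations by edgeR's test (0 of 40), while 11 had an unadjusted p under 0.05, and DESeq2 called 7. The shares of all genes that passed were 0.0102% in DC1a, 0.413% in DC1b, 0.0612% in DC2 and 0.0255% in DC3 cells. The members at an unadjusted p under 0.05 numbered 2 in DC1a, 6 in DC1b, 2 in DC2 and 1 in DC3 cells. In the fit all untreated libraries are of batch 1 and the batch term comes from the TLI pools, so a fold change sets the TLI level of batch 1 against untreated cells.

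DC1b cells held the most members at an unadjusted p under 0.05. Irf8 was at 1079 and 875 CPM untreated and between 59.4 and 369 CPM after TLI, without overlap, and the fitted difference was -1.71 ± 0.69 (n = 4 and 2, edgeR adjusted p = 0.326). Batf3 gave 1.25 ± 0.39 (edgeR adjusted p = 0.206), Id2 gave 1.11 ± 0.50 (edgeR adjusted p = 0.383) and Zbtb46 gave 2.64 ± 0.91 (edgeR adjusted p = 0.250). In Id2 and Zbtb46 every TLI DC1b library lay above both untreated ones. Spi1 gave 1.51 ± 0.49 (edgeR adjusted p = 0.221). None of these passed. The plasmacytoid DC markers differed between the same libraries, at 38.4 to 113 summed CPM after TLI against 4713 and 7613 untreated, and the neutrophil markers differed the other way.

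Bcl6 had the lowest p of the members in DC1a, DC2 and DC3 cells. The fitted differences were -1.88 ± 0.32 in DC1a (edgeR adjusted p = 0.114), -1.76 ± 0.34 in DC2 (edgeR adjusted p = 0.0625) and -1.69 ± 0.31 in DC3 cells (edgeR adjusted p = 0.0696), against 1.03 ± 0.34 in DC1b cells (edgeR adjusted p = 0.230). In DC1a cells the untreated libraries had 36.6 and 34.8 CPM, between the TLI libraries of batch 1 (9 and 8.42 CPM) and those of batch 2 (42.6 and 43.3 CPM). The direction thus depends on which TLI batch is set against the untreated libraries, and batch and TLI cannot be told apart for batch 2. DESeq2 called Bcl6 in all 4 populations, and edgeR's test without TLI pool 1 called it in DC1a, DC2 and DC3 cells (adjusted p = 0.0207, 0.0338 and 0.0277), with Spi1 in DC1b cells (2.07, adjusted p = 0.0143). Without pool 1 the TLI DC2 libraries are all of batch 2, at 67.6 and 81.9 CPM of Bcl6 against 59.3 and 68.0 CPM untreated. The lower fitted level of Bcl6 in DC2 cells there rests on the batch term, which then comes from the other populations.
The test that the TLI effect was equal in the 4 populations called 0 of the 10 members, against 0.0357% of all genes, with 4 at an unadjusted p under 0.05. These were Bcl6 (edgeR adjusted p = 0.0573), Batf3 (0.549), Irf8 (0.573) and Zbtb46 (0.603). DESeq2 called 1, which was Bcl6, and edgeR's test without TLI pool 1 called it too (adjusted p = 0.0278). Without DC2 replicate 2 of the untreated mice, Irf8 was called instead (edgeR adjusted p = 0.0207). A p that misses the threshold with 2 untreated libraries per population does not show that TLI left a factor unchanged.

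**Figure D5:**
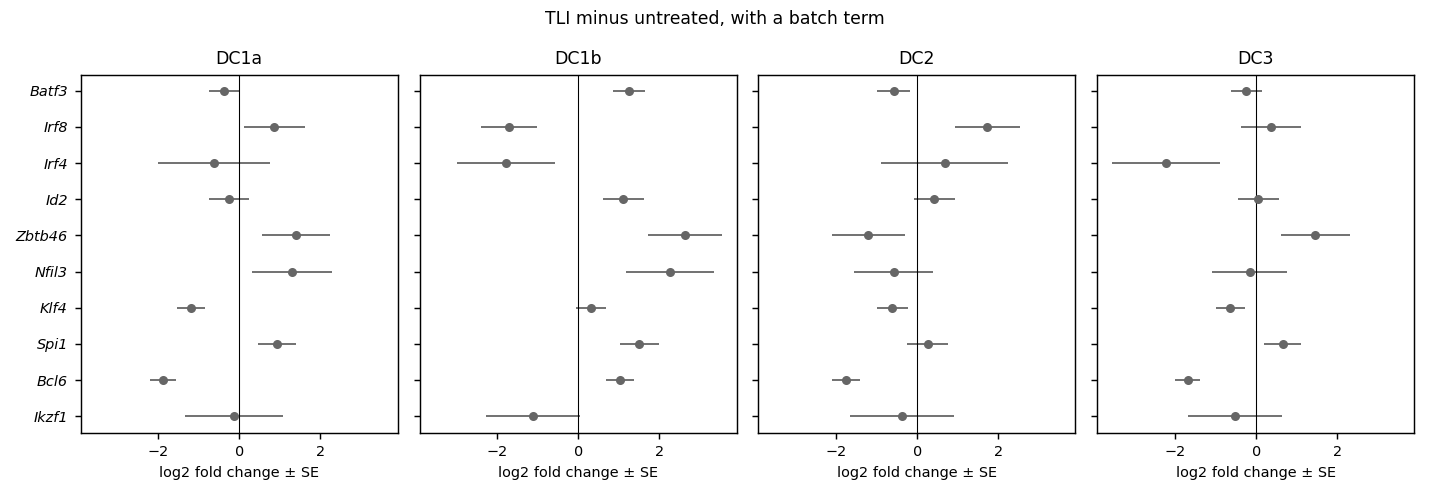
Fitted log2 fold changes (x axes, TLI minus untreated, with SE bars) of the 10 members in each population, with a batch term. No point passed an adjusted p of 0.05, and Bcl6 lies at -1.88, -1.76 and -1.69 in DC1a, DC2 and DC3 cells and at 1.03 in DC1b cells.

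A list of 54 other regulators of DC and related lineages, all tested, was set beside the members. In untreated mice 5 were higher in DC1b than in DC1a cells and 0 lower, where 0.837% of all genes passed, 102 higher and 62 lower, with a median log2 fold change of 0.74 against 0.07 over all genes. Zeb2 (5.89), Runx2 (5.21) and Tcf4 (5.15) had the largest differences. Tcf4 encodes E2-2, the E protein of plasmacytoid DC fate that Id2 opposes, and it averaged 774 ± 355 CPM (SD, n = 2) in untreated DC1b and 17.6 ± 2.92 CPM (n = 2) in untreated DC1a cells. DC2 against DC1a cells gave 4 higher and 0 lower (1.91% of all genes, 170 higher and 205 lower; median 1.12 against 0.11), with Zeb2 (5.55), Cebpb (4.36) and Mef2c (2.91) the largest.
In TLI mice 6 were higher in DC1b than in DC1a cells and 0 lower (1.42% of all genes, 239 higher and 40 lower; median 0.63 against 0.02), among them Ikzf3 (7.06) and Cebpb (6.20). In DC2 against DC1a cells 10 were higher and 0 lower (3.4% of all genes, 411 higher and 255 lower; median 0.88 against 0.02), among them Id3 (6.68) and Zeb2 (6.31). Ikzf3 was near the floor in TLI DC1a cells, so its fitted size depends on the prior count. Cebpb belongs to monocyte and granulocyte programmes. After TLI, DC1b cells had lower Runx2 (-4.26), Tcf4 (-3.90) and Mef2c (-2.58) and higher Cebpb (4.04, edgeR adjusted p = 0.0122), 4 of the 54 (0.413% of all genes, 39 higher and 42 lower; median 0.16 against 0.09). In DC1a, DC2 and DC3 cells 0 of the 54 passed by edgeR's test, with 8, 10 and 10 at an unadjusted p under 0.05. Of all genes only 0.0102%, 0.0612% and 0.0255% passed there, so 0 calls do not set these populations apart from DC1b cells.

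Over the 8 group means of log2 CPM, the pattern most like that of Irf8 among 10167 genes was shown by Agpat5 (Pearson r = 0.992), Nop2 (0.984) and P2ry14 (0.982). For Batf3 these were Eif1a (0.985), Zfp366 (0.972) and Wdfy4 (0.969). For Irf4 they were Eif5 (0.978), Gm38365 (0.977) and Pced1a (0.974), and for Id2 they were Fkbp1a (0.980), Dctpp1 (0.976) and Ece1 (0.973). Klf4 was followed most closely by Fcer1g (0.989), Clec4a2 (0.988) and Ms4a4c (0.986), and Bcl6 by Gm12992 (0.959), Mapk3 (0.950) and Wdfy3 (0.917). With 8 means that share libraries, pools and batches, these values describe likeness only. Among the members Irf4 and Ikzf1 were most alike (0.860) and Irf8 and Spi1 most opposed (-0.893).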

How the data were processed

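RNA of sorted spleen DCs was amplified with a kit for small cell numbers and sequenced. Per the submitters' processing notes and the study's methods, reads were trimmed with Trimmomatic and aligned to GRCm38 with HISAT2. The authors then derived the deposited values, estimated counts per gene, with StringTie, as whole numbers unscaled for depth or length. Files were joined to groups by the sample labels, and symbols came from GENCODE M21 (47224 of 47729 identifiers).

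Counts entered a single fit of all 23 libraries in edgeR 4.0.16 (R 4.3.3; TMM scaling, filterByExpr, 8 groups plus batch), with Benjamini-Hochberg adjustment over 19597 genes and a threshold of 0.05. The SE was taken as the log2 fold change over the square root of F. The design had assumed plain counts, and the values were used as they are. The biological coefficient of variation was 1.08, and p-values measure the spread between pools. Amplified reads are not independent molecules, so floors cover counting error only. The fit was tested on simulated data, on which, at 2 against 2 libraries, it missed most of the changes put in, large ones included; the standard for passing that test was lowered after its first result, to the right direction and few false calls.

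Libraries with 1 pool number and treatment in the labels share their pooled mice, but the reported fit has no pool term. Residuals of same-pool libraries correlated at -0.016 to 0.138 over genes, and pool was a replicate block in an alternative fit. DESeq2 1.42.0 (with its own size factors), other scaling, filters and subsets of libraries, and each library left out were the other alternatives. Leaving out TLI pool 1 and removing erythroid genes were added after seeing the data. The ratio of Irf8 to Irf4 was tested by exact permutation.

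The members, the lists and the tests were chosen with earlier results of these data known. All 10 members are named, with the 3 largest called differences of the list of other regulators (1 of its genes is not reported here), and the 3 genes most like a member with a mean of at least 5 CPM; Tcf4 levels and the fourth regulator called in DC1b cells after TLI were added by choice after seeing their values. Protein sequences were not used here.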

Additional observations from a re-analysis of the deposited data

Results flagged for a closer look

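The 2 libraries named here stood far from the others of their group among 30 groups of 4 TLI libraries tested by Dixon's criterion, and chance flags about 1 in 20 groups. In TLI DC1a cells, Irf8 was at 961 CPM in pool 2, against 622 to 661 CPM in the other pools. In TLI DC3 cells, Spi1 was at 556 CPM in pool 2, against 72.6 to 146 CPM in the other pools. Neither gene was called between TLI and untreated cells of that population.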

How the results depend on the processing

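Under the alternatives no called difference changed direction, and 477 of the 576 values recomputed for the 18 called differences kept their call. Among values recomputed for differences not called, 82 became calls and 4382 did not. DESeq2, with its own size factors, called 16 of 60 between untreated and 26 of 60 between TLI populations (9 and 9 in the report), 7 of 40 for TLI against untreated and 1 of 10 for the interaction (0 and 0). Without a batch term 5 and 5 of 60 passed between populations. In batch 1 alone 2 of 60 passed between TLI populations and 0 of 6 pairs for the ratio of Irf8 to Irf4 (4 in the report), where the smallest exact p is 0.0556. With the pool as a replicate block the counts were 9 of 60 untreated, 8 of 60 TLI, 0 of 10 for the interaction and 0 of 6 for the ratio. The block ended the TLI calls of DC2 against DC1a cells for Batf3 (edgeR adjusted p = 0.0786) and Irf4 (0.101) and added Id2 for DC3 against DC2 cells (0.0329). Without TLI pool 1, 4 of 40 passed for TLI against untreated and 1 of 10 for the interaction. Leaving out 1 library at a time gave 4 to 11 untreated calls, 6 to 11 TLI calls, 0 to 1 for TLI against untreated, 0 to 1 for the interaction and 4 to 5 for the ratio. Untreated calls fell to 4 without DC1a or DC1b replicate 1 and to 5 without replicate 2 of either. The cause of these changes was not tested. With 2 libraries per untreated population, and a single DC2 library in TLI batch 1, the precision of each contrast that uses them is low.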
